A study of Rattus norvegicus with 12 samples.

Results

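The genes described here are 35 genes of the endothelium, the cell layer that lines blood vessels, lymphatic vessels and the inside of the heart. They were chosen by name, as 19 general endothelial genes and 4 genes each for capillaries, lymphatic vessels, inflammatory activation and coagulation. A probe set was taken where the platform annotation gave it a single symbol that matched a member, older synonyms included. This gave 51 of 31042 probe sets, controls aside, for 34 of the 14217 genes measured. Cdh5, VE-cadherin, the adhesion molecule of endothelial junctions, had no such probe set and was not analysed here. Of the 34 measured members, 32 passed the filter on low values and were tested, and Sele and Selp did not.

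The endothelium forms a barrier between blood and tissue, and in the heart it lies beside nearly every muscle cell as a capillary. Its growth and survival run through VEGF receptors and the angiopoietin receptor Tek. Its surface controls clotting through thrombomodulin, the protein C receptor and tissue factor pathway inhibitor, and it catches leukocytes through selectins and the ligands Icam1 and Vcam1 when it is activated. Transcription factors of the ETS and SOXF families take part in endothelial identity in mouse and zebrafish.

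RNA came from the left atrial appendage and the left ventricular free wall of male Sprague Dawley rats weighing 225 to 275 g, whose age the labels do not give. The 4 groups were left atrium after an aorto-caval shunt, left atrium after a sham operation, left ventricle after a shunt and left ventricle after a sham operation, all taken at 28 days, with 3 arrays each. The shunt lets blood pass straight from the aorta into the vena cava, which loads the heart with volume. Each array held 1 pool of 2 tissues, prepared from 10 µg of total RNA, so the spread given below is between pools and not between animals.

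All levels are RMA values on a log2 scale, a summary of probe brightness that the authors computed, so a difference of 1 is a doubling, and levels of different genes cannot be set against each other. Differences come from limma, fitted over all 12 arrays and 18625 probe sets, with Benjamini-Hochberg adjusted p-values and a threshold of 0.05. A gene is represented by its tested probe set of highest mean. Arrays of 1 group correlated at 0.990 to 0.997, and arrays of the 2 chambers at 0.968 to 0.976. The chamber labels matched their markers in sham rats: the atrial myosin light chain Myl4 was 8.06 higher in atrium and the ventricular light chain Myl2 was 9.10 lower there. Atrial shunt array 3 stood apart, with a root mean square deviation of 0.200 from its group, against 0.0913 to 0.163 on the other 11 arrays. Its 3′ minus 5′ difference on the hexokinase control, a sign of RNA integrity, was 1.44, against 0.799 to 1.23 on the other arrays. Where leaving out that array changed a member's call, the result is given with and without it.

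The promoters of 4 members are shown because the chambers differed in these genes, Vcam1, Plvap and Procr being higher in atrium and Flt4 lower. Each is the 250 bases before the annotated start in RefSeq on GRCr8, 5′ to 3′ on the gene's own strand. Capitals mark a match to the NF-kB motif in Vcam1, and to the ETS motif AGGAAG or its reverse complement CTTCCT in the other 3 genes.
Vcam1: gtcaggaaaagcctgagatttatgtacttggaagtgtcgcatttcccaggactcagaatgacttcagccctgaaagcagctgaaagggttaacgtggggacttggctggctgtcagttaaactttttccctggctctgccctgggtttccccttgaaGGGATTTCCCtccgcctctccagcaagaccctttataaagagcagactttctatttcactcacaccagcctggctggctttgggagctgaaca
Plvap: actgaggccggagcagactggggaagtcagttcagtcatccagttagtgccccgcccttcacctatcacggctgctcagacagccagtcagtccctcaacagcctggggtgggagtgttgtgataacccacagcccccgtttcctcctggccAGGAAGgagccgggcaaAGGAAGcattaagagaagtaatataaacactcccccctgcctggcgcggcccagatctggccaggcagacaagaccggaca
Procr: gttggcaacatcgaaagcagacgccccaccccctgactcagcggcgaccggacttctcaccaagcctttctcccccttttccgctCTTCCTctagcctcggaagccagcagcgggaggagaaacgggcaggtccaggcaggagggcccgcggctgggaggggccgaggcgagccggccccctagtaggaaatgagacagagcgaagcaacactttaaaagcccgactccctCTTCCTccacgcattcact
Flt4: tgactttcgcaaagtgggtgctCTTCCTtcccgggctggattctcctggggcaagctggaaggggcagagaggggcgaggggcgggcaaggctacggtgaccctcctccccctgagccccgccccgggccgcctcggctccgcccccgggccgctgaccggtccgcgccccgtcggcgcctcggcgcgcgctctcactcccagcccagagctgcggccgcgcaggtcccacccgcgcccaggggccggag

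The Vcam1 window lies at chr2:206742784-206743033 on the minus strand, and its NF-kB match begins 93 bases before the start. The Plvap window lies at chr16:18231280-18231529 on the minus strand, with ETS matches that begin 98 and 81 bases before the start. The Procr window, at chr3:164714477-164714726 on the plus strand, holds ETS matches 165 and 19 bases before the start. The Flt4 window, at chr10:34414584-34414833 on the plus strand, holds 1 match, 228 bases before the start. Both strands were searched, in the 21 members that had a promoter in the table. A gene counted if any of its windows held a match. The NF-kB motif was GGGRNNYYCC, with R for A or G, Y for C or T and N for any base. An NF-kB match was present in 4 of them (Eng, Flt1, Kdr and Vcam1), against 6.92% of 27457 genes with a promoter of the same length. The ETS letters were present in 13 of 21 members, against 31.3% of all these genes. The letters AACAAT, a SOX motif, were present in 2 members (Emcn and Erg), against 11.2%, and CACCC, a KLF motif, in 15 members, against 51.4%. These are letter matches and not measured sites, the NF-kB and ETS searches were not exclusive of each other, and ETS matches occurred in members that were higher in atrium as well as in members that were lower. Among the NF-kB matches, Vcam1 was higher in atrium in sham rats, Kdr and Flt1 were lower, and Eng was not called. Icam1, also higher in atrium, had no NF-kB match.

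The first question was how the endothelial genes differ between the chambers in rats without a volume load. In sham rats, 22 of 32 members differed between atrium and ventricle, 8 higher and 14 lower in atrium. Such differences were common on these arrays: 50.2% of 10606 genes were called, 27.6% higher in atrium and 22.6% lower, so the count of 22 is read against that share. The median difference over the members was -0.15, against 0.02 over all genes. Of 18 general members, 1 was higher and 10 were lower in atrium, and 7 did not pass. Both tested activation members were higher, while the lymphatic, coagulation and capillary genes divided within their class. In this bulk tissue, fewer endothelial cells and less RNA per cell cannot be told apart.

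**Figure D1:**
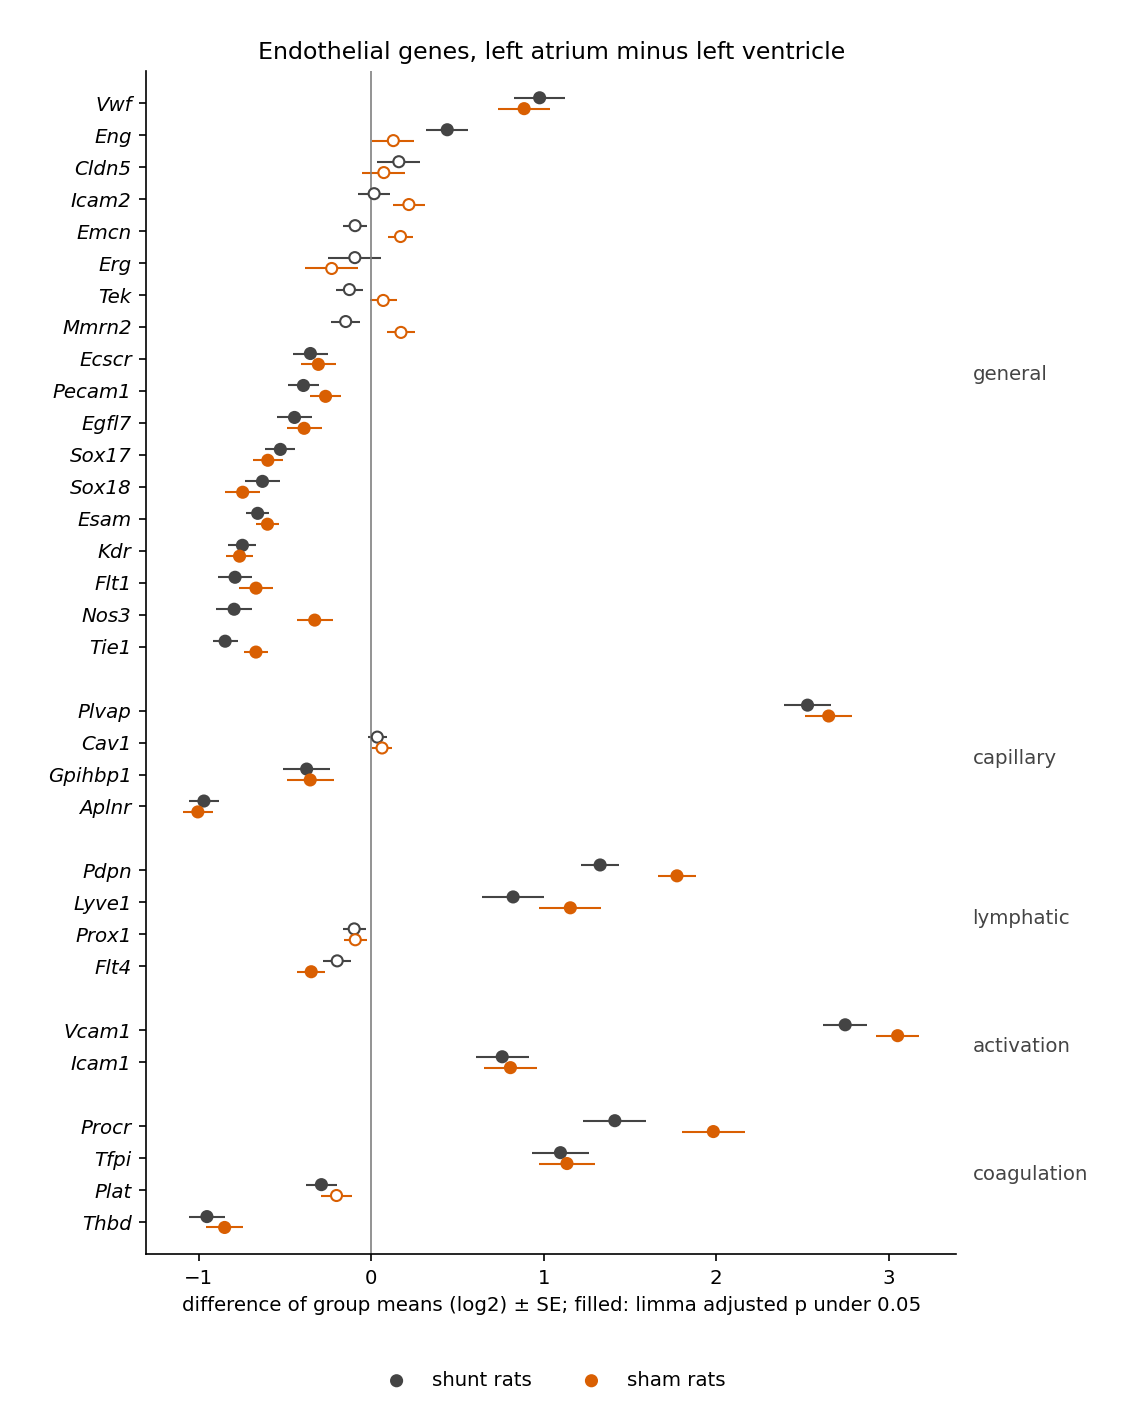
Difference between left atrium and left ventricle (log2 ± SE of the limma fit) for the 32 tested members, by class, in shunt and in sham rats, with filled points where the adjusted p is under 0.05. Vcam1, Plvap, Procr and Pdpn lie far to the right in both operations, while most general genes lie to the left of 0.

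The 2 members with the widest gap between chambers were Vcam1 and Plvap. Vcam1, the adhesion molecule for leukocytes that carry the integrin α4 chain, had 7.44, 7.45 and 7.49 in atrial sham pools, against 4.27, 4.44 and 4.52 in ventricular sham pools (probe set 1368474_at). The groups were far apart. The difference was 3.05 ± 0.13 (SE, n = 3 per group, limma adjusted p = 5.47e-09), which is 8.29-fold. Plvap, which forms the diaphragms of fenestrae and caveolae in the endothelium of some vascular beds, had 7.51, 7.71 and 7.53 in atrial sham pools, against 4.86, 4.91 and 5.03 in ventricular sham pools (1368284_at). Again no array came near the other chamber, and the difference was 2.65 ± 0.14 (adjusted p = 3.66e-08), or 6.28-fold.

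Icam1, the ligand of leukocyte β2 integrins, had 6.72, 6.93 and 6.84 in atrial sham pools, against 6.33, 6.01 and 5.73 in ventricular sham pools. The atrial pools were all above the ventricular ones, by 0.81 ± 0.15 on average (adjusted p = 0.00115). The selectins, which slow leukocytes on activated endothelium, were low on these arrays. Sele, E-selectin, averaged 2.67 ± 0.08 in atrial sham and 3.04 ± 0.12 in ventricular sham pools (SD, n = 3 each), below the filter at 4.01, and was not tested with it. Fitted without the filter, Sele was lower in atrium by -0.38 ± 0.10 in sham rats (adjusted p = 0.0123) and by -0.62 ± 0.10 after the shunt (adjusted p = 0.000446), opposite in sign to Vcam1 and Icam1. The higher of the 2 probe sets of Selp, P-selectin, averaged 3.71 ± 0.17 in atrial sham and 3.67 ± 0.05 in ventricular sham pools, also below the filter.

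The coagulation genes went in different directions. Procr, the endothelial receptor that presents protein C for activation, had 7.60, 7.18 and 7.28 in atrial sham pools, against 5.31, 5.16 and 5.64 in ventricular sham pools (1372729_at), so every atrial pool was higher. The difference was 1.98 ± 0.18 (adjusted p = 4.35e-06), or 3.95-fold. Thbd, thrombomodulin, the receptor that turns thrombin toward protein C, went the other way, with 7.06, 7.17 and 7.14 in atrial sham pools, against 8.01, 7.80 and 8.10 in ventricular sham pools (1375951_at). Its difference was -0.85 ± 0.11 (adjusted p = 5.04e-05), and 2 further probe sets of Thbd gave -1.02 and -0.80, both called. The 2 receptors of the protein C pathway thus had opposite chamber differences. Tfpi, which inhibits the tissue factor complex, had 8.37, 8.23 and 8.23 in atrial sham pools, against 7.18, 7.08 and 7.17 in ventricular sham pools, a difference of 1.13 ± 0.16 (adjusted p = 0.000155). Its second probe set gave 0.72 ± 0.07 in the same direction. Plat, tissue plasminogen activator, differed by -0.20 ± 0.09 and was not called (adjusted p = 0.0774), though it was called without atrial shunt array 3 (adjusted p = 0.0498).

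Of the lymphatic genes, Pdpn and Lyve1 were higher in atrium and Flt4 was lower. Pdpn, podoplanin, a glycoprotein of lymphatic endothelium that mesothelium also makes, had 7.47, 7.53 and 7.33 in atrial sham pools, against 5.77, 5.55 and 5.69 in ventricular sham pools (1386913_at). The gap of 1.77 ± 0.11 (adjusted p = 1.47e-07), or 3.41-fold, was many times the spread within either group. Lyve1, a hyaluronan receptor of lymphatic endothelium and of some tissue macrophages, had 8.49, 8.39 and 8.53 in atrial sham pools, against 7.54, 7.18 and 7.22 in ventricular sham pools, a difference of 1.15 ± 0.18 (adjusted p = 0.000259). A second Lyve1 probe set gave 1.08 ± 0.11. Flt4, the receptor of VEGF-C, had 3.92, 3.97 and 3.76 in atrial sham pools, against 4.22, 4.13 and 4.35 in ventricular sham pools. Its atrial sham values lay below the filter at 4.01, which it passed by its mean over all arrays. Its difference was -0.35 ± 0.08 (adjusted p = 0.00412), close to the array background. Prox1, the transcription factor that sets lymphatic identity and that heart muscle cells also express, differed by -0.09 ± 0.07 and was not called (adjusted p = 0.273). The 4 lymphatic members therefore did not share a direction.

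The receptors of the general class were mostly lower in atrium. Kdr, the main signalling receptor of VEGF-A, had 8.61, 8.40 and 8.51 in atrial sham pools, against 9.24, 9.31 and 9.27 in ventricular sham pools (1367948_a_at). The difference was -0.76 ± 0.08 (adjusted p = 1.32e-05), which puts the ventricle 1.70-fold higher. Flt1, a VEGF receptor that also acts as a trap for the ligand, had 6.39, 6.09 and 6.17 in atrial sham pools, against 6.83, 6.89 and 6.94 in ventricular sham pools, a difference of -0.67 ± 0.10 (adjusted p = 0.000169). By these probe sets both VEGF-A receptors were lower in every atrial pool than in any ventricular pool. Of the further tested Flt1 probe sets, 1370492_a_at gave -0.38 ± 0.14 (adjusted p = 0.0383). The other, 1377113_at, overlapped between the chambers and was not called, at -0.14 ± 0.10 (adjusted p = 0.27). Tie1, the orphan partner of Tek, had 7.59, 7.63 and 7.57 in atrial sham pools, against 8.25, 8.38 and 8.17 in ventricular sham pools, a difference of -0.67 ± 0.07 (adjusted p = 1.51e-05). Tek, the receptor of the angiopoietins, differed by 0.07 ± 0.08 (adjusted p = 0.495), and the difference between these 2 members of the TIE family was not tested. Eng, the TGF-beta co-receptor endoglin, differed by 0.13 ± 0.12 and was not called (adjusted p = 0.416).

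Among the transcription factors and junction genes of the general class, those that passed were lower in atrium. Sox18, a SOXF factor, had 7.27, 6.93 and 7.12 in atrial sham pools, against 7.997, 7.71 and 7.85 in ventricular sham pools, a difference of -0.75 ± 0.10 (adjusted p = 0.000105). Its relative Sox17 differed by -0.60 ± 0.09 (adjusted p = 0.000149), and the ETS factor Erg by -0.23 ± 0.15, which was not called (adjusted p = 0.239). By their representing probe sets both SOXF factors were thus lower in atrium. Another tested Sox17 probe set, 1390041_at, overlapped between the chambers and was not called, at -0.26 ± 0.12 (adjusted p = 0.104). Esam, an adhesion molecule of endothelial tight junctions, was lower in atrium by -0.60 ± 0.07 (adjusted p = 2.22e-05). Cldn5, the claudin of endothelial tight junctions, differed by 0.07 ± 0.12 (adjusted p = 0.662). Pecam1, CD31, the adhesion molecule most used to mark endothelium, differed by -0.27 ± 0.09 (adjusted p = 0.0279), a 1.20-fold higher level in ventricle that was called in 7 of 12 fits that leave out 1 array.

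Nos3, the endothelial nitric oxide synthase, had 6.19, 6.44 and 6.44 in atrial sham pools, against 6.62, 6.77 and 6.66 in ventricular sham pools, a difference of -0.33 ± 0.10 (adjusted p = 0.0218, called in 10 of 12 fits without 1 array). Egfl7, a matrix protein secreted by endothelium, was lower in atrium by -0.39 ± 0.10 (adjusted p = 0.00811), and Ecscr, a surface regulator of endothelial migration, by -0.31 ± 0.10 (adjusted p = 0.029, called in 8 of 12 fits without 1 array). The 1 general member called higher in atrium was Vwf, von Willebrand factor, the platelet-binding protein that endothelium stores. It had 8.70, 8.82 and 8.78 in atrial sham pools, against 7.87, 7.92 and 7.86 in ventricular sham pools, 0.89 ± 0.15 higher (adjusted p = 0.000461). The remaining general members, Emcn (0.17 ± 0.07), Icam2 (0.22 ± 0.09) and Mmrn2 (0.17 ± 0.08), had positive differences that did not pass the test. Without atrial shunt array 3, Icam2 was called (adjusted p = 0.0228, against 0.0693 with all arrays). Emcn and Icam2 were both called higher with array weights, with a trended and robust prior and with only the sham groups fitted. A second tested Icam2 probe set, 1390310_at, overlapped between the chambers, at 0.005 ± 0.13 (adjusted p = 0.978). It averaged 4.25 over all arrays, near the filter.

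The capillary class held the widest spread among its 4 members, since Plvap was 2.65 higher and Aplnr lower at -1.01 ± 0.09. Aplnr, the apelin receptor, had 7.38, 7.21 and 7.46 in atrial sham pools, against 8.44, 8.26 and 8.36 in ventricular sham pools (adjusted p = 2.18e-06), and a second probe set gave -0.87 ± 0.09. Gpihbp1, which carries lipoprotein lipase to the luminal face of capillaries, differed by -0.35 ± 0.14 (adjusted p = 0.0486), and was called in only 4 of 12 fits without 1 array. After the shunt Gpihbp1 differed by -0.38 ± 0.14 and was called (adjusted p = 0.0427). Without atrial shunt array 3 its adjusted p was 0.0518 in sham rats and 0.058 after the shunt. Cav1, the coat protein of caveolae, differed by 0.06 ± 0.06 (adjusted p = 0.385), with every probe set within 0.10 of 0. Over all members, 13 further probe sets of 10 genes were tested, and 12 of them had the same sign as the one that represents the gene in the sham chamber comparison.

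**Figure D2:**
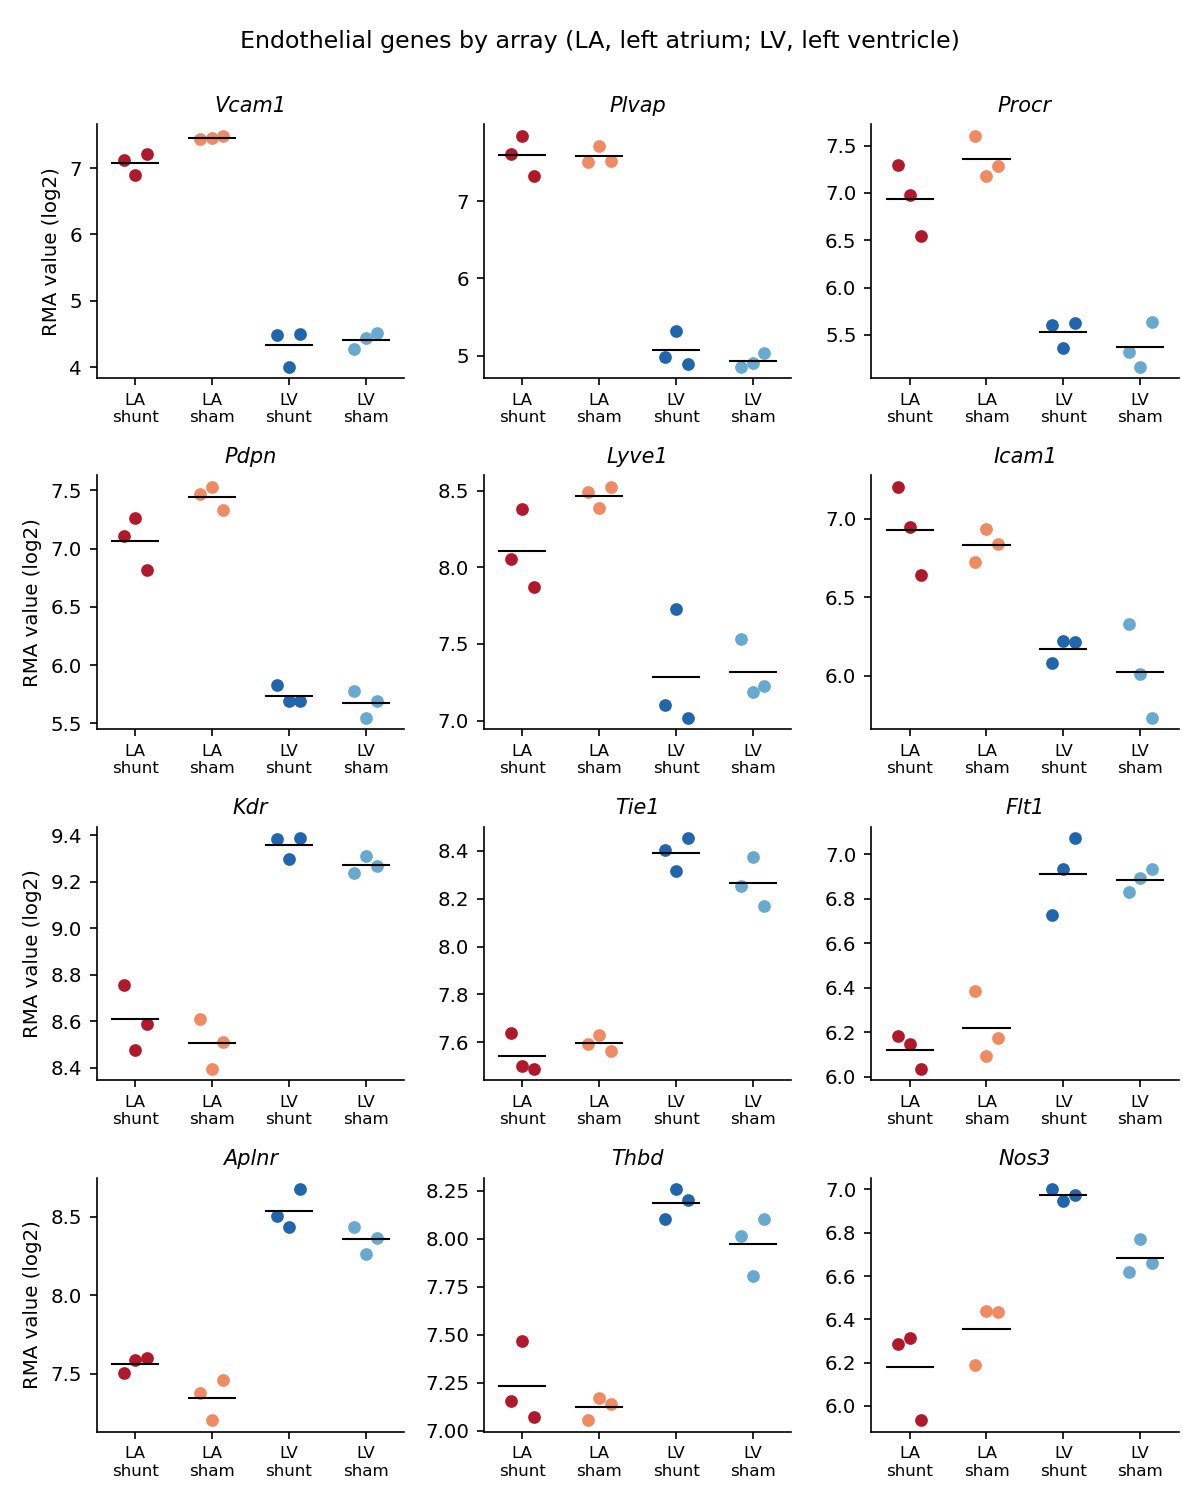
RMA values (log2) of 12 members on each of the 12 arrays, with a line at each group mean, and a separate vertical scale for each gene. The first 6 genes are high in both atrial groups and the last 6 are high in both ventricular groups, with no overlap between chambers within an operation for any of them.

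Wider lists show where the members sit, beside 27.6% of all genes called higher and 22.6% called lower in atrium in sham rats. Of 40 other endothelial genes tested, 6 were higher and 21 lower in atrium in sham rats, with a median of -0.28. Nr2f2, the venous transcription factor COUP-TFII, which atrial muscle cells also express, was 2.51 ± 0.08 higher (adjusted p = 5.56e-10). Hey2, a Notch target of arterial endothelium and of ventricular muscle cells, was lower by -2.08 ± 0.09 (adjusted p = 9.63e-09). Of 7 tested genes of capillary lipid handling and metabolism, 5 were lower, among them the fatty acid transporter Cd36 at -1.22 ± 0.08 (adjusted p = 3.55e-07), which muscle cells also make, and 1 was higher, the fatty acid binding protein Fabp5 at 0.67 ± 0.07. Of 5 tested endocardial genes, 4 were higher and none lower, led by the natriuretic peptide clearance receptor Npr3 at 2.19 ± 0.15 (adjusted p = 4.44e-07).

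The ligands of the members' receptors also differed. Of 17 tested angiogenic ligands, 7 were higher and 6 lower in atrium, against 27.6% and 22.6% of all genes. Vegfa, the ligand of Kdr and Flt1, had 9.004, 8.72 and 8.89 in atrial sham pools, against 10.07, 10.10 and 10.17 in ventricular sham pools, and its difference of -1.24 ± 0.16 (adjusted p = 7.1e-05) had the sign of its receptors. Apln, the ligand of Aplnr, likewise had the sign of its receptor, at -1.17 ± 0.20 (adjusted p = 0.000576). Angpt1, the agonist of Tek, was 1.23 ± 0.13 higher in atrium (adjusted p = 1.41e-05), where Tek itself was not called. Of 10 leukocyte adhesion genes, 1 was higher and 3 lower, the higher one being the hyaluronan receptor Cd44 at 1.33 ± 0.11 (adjusted p = 1.33e-06).

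Markers of other cell types were also compared between the chambers, where 50.2% of all genes were called. Of 8 tested mesothelial markers, 6 were higher and 2 lower in atrium in sham rats. Msln, mesothelin, had 8.003, 8.23 and 7.73 in atrial sham pools, against 4.16, 3.89 and 4.06 in ventricular sham pools, and Upk1b, a uroplakin of mesothelium, averaged 7.36 in atrial sham pools, against 3.23 in ventricular sham pools, below the filter. The mean level over the mesothelial list was 5.90 to 6.10 in atrial sham pools, against 4.04 to 4.12 in ventricular sham pools. Of 8 fibroblast markers, 6 were higher and none lower, with list means of 9.28 to 9.32 in atrial sham pools, against 8.77 to 8.83 in ventricular sham pools. Of 9 mural markers, the genes of pericytes and smooth muscle, none was higher and 7 were lower, with list means of 7.20 to 7.30 in atrial sham pools, against 7.60 to 7.68 in ventricular sham pools. Of 11 macrophage markers, 1 was higher and 3 lower, a share of 36.4%, with list means of 6.08 to 6.23 in atrial sham pools, against 6.26 to 6.35 in ventricular sham pools. Mesothelial cells are known to make Pdpn, Procr and Vcam1 as well, and the part of these cells in the members' differences was not tested.

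After the shunt, 23 of 32 members differed between atrium and ventricle, 9 higher and 14 lower in atrium, against 45.6% of all genes, of which 24.8% were higher and 20.9% lower. Vcam1 had 7.12, 6.90 and 7.21 in atrial shunt pools, against 4.48, 4.01 and 4.50 in ventricular shunt pools, a difference of 2.75 ± 0.13 (adjusted p = 1.49e-08). Plvap differed by 2.53 ± 0.14 (adjusted p = 6e-08), Procr by 1.41 ± 0.18 (adjusted p = 7.05e-05) and Pdpn by 1.33 ± 0.11 (adjusted p = 1.73e-06). Eng and Plat were called only after the shunt, Eng at 0.44 ± 0.12 (adjusted p = 0.0124) and Plat at -0.29 ± 0.09 (adjusted p = 0.0195), and Flt4 only in sham rats, being -0.20 ± 0.08 after the shunt (adjusted p = 0.0701). These calls are not firm. Plat was not called after the shunt without atrial shunt array 3 (-0.21 ± 0.09, adjusted p = 0.0685), where it was called in sham rats, and Eng after the shunt was called in 10 of 12 fits without 1 array, those without atrial shunt array 2 and without ventricular shunt array 1 being the exceptions. For none of these 3 genes did the difference between the operations pass a test of its own (adjusted p = 0.825 for Eng, 0.98 for Plat and 0.912 for Flt4).

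Nos3 had 6.29, 6.31 and 5.93 in atrial shunt pools, against 7.00, 6.95 and 6.97 in ventricular shunt pools, a gap of -0.80 ± 0.10 (adjusted p = 7.4e-05). The gap in sham rats was -0.33. The shunt effect in atrium minus that in ventricle was -0.47 ± 0.15 for Nos3, the smallest adjusted p among the members, and it did not pass (adjusted p = 0.529). No member passed in this comparison of effects in limma, and 0.0% of all genes were called. For no gene, then, did a chamber difference in the shunt response pass. Of the members, 5 of 32 had an unadjusted p under 0.05, as did 720 of 10606 genes.

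The second question was what the shunt did to the endothelial genes within each chamber. In the left atrium, no member passed the limma test, against 1.4% of all genes. An unadjusted p under 0.05 was found for 9 of 32 members and for 1683 of 10606 genes. In the left ventricle, no member passed, against 0.113% of all genes. There 5 of 32 members had an unadjusted p under 0.05, as did 1553 of 10606 genes. The median member difference was 0.01 in atrium, against -0.01 over all genes. In ventricle it was 0.09, with 25 of 32 members above 0, against 5305 of 10606 genes above 0. Of the 13 further probe sets, 4 had the sign of the representing one in atrium and 7 in ventricle.

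**Figure D3:**
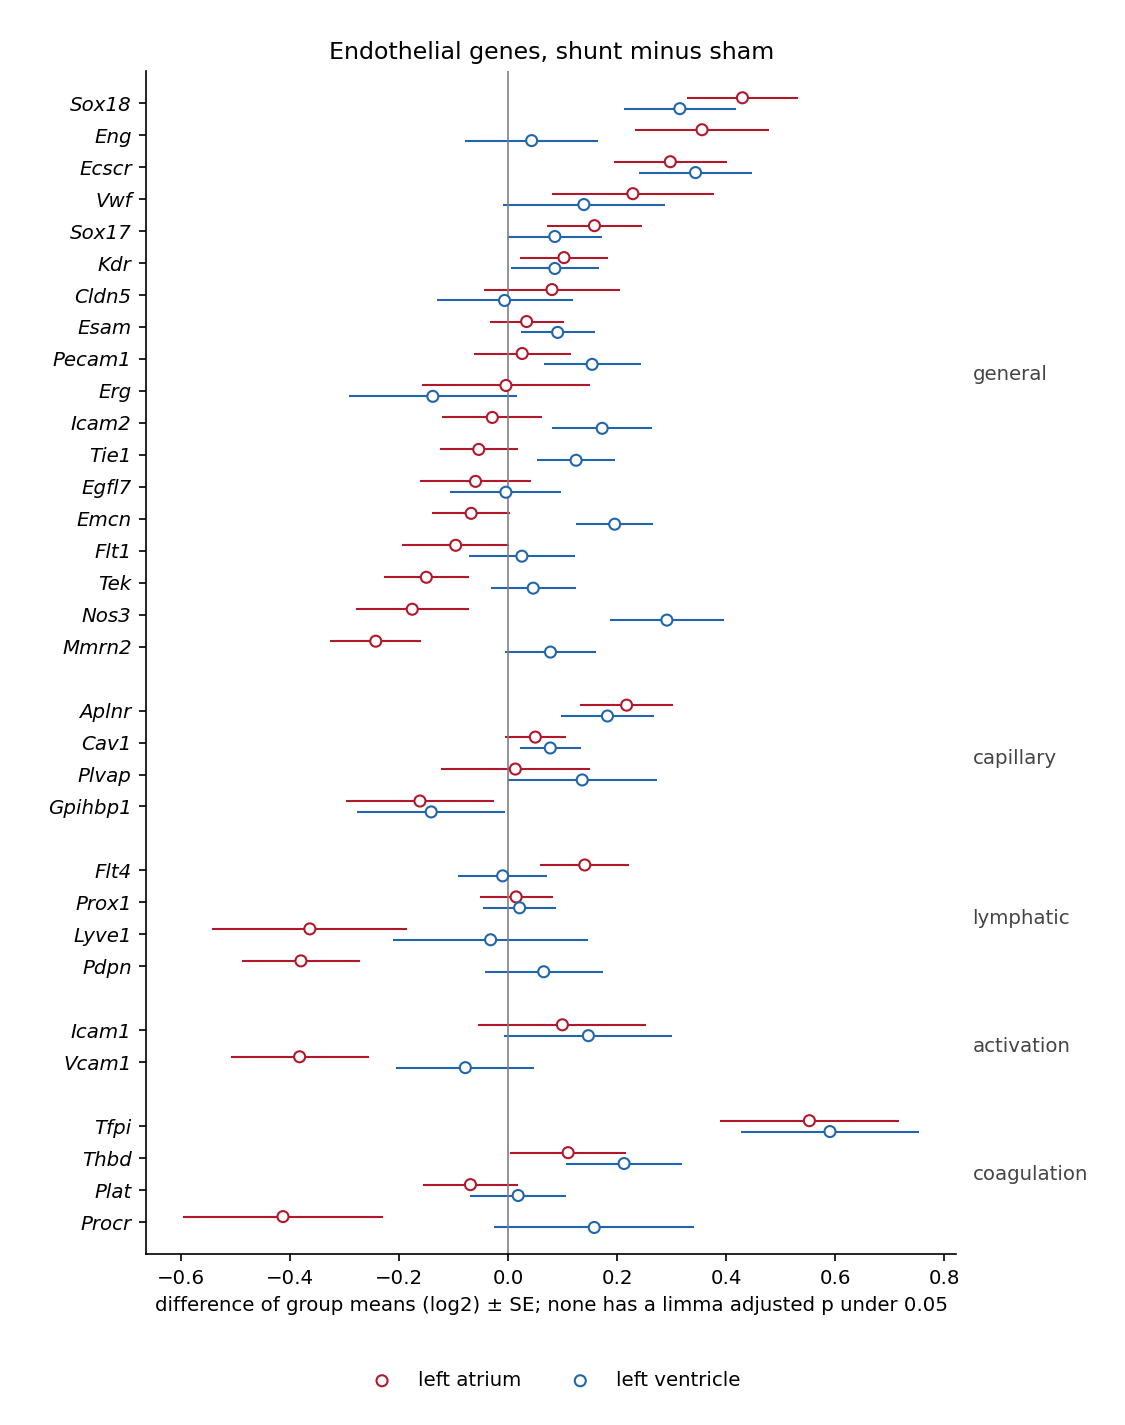
Shunt minus sham difference (log2 ± SE of the limma fit) for the 32 tested members, by class, in left atrium and in left ventricle. Sox18, Ecscr and Tfpi lie to the right of 0 in both chambers, Vcam1, Pdpn, Lyve1 and Procr lie to the left in atrium, and no point has an adjusted p under 0.05.

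Sox18 came nearest to the threshold. It had 7.67, 7.48 and 7.45 in atrial shunt pools, against 7.27, 6.93 and 7.12 in atrial sham pools, without overlap. The difference was 0.43 ± 0.10 (limma adjusted p = 0.0684). In ventricle Sox18 had 8.07, 8.25 and 8.18 in shunt pools, against 7.997, 7.71 and 7.85 in sham pools, again without overlap, a difference of 0.31 ± 0.10 (adjusted p = 0.205). Sox17 had 6.13, 6.14 and 6.19 in atrial shunt pools, against 5.93, 5.96 and 6.10 in atrial sham pools, a difference of 0.16 ± 0.09 (adjusted p = 0.42).

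Tfpi had the widest difference under the shunt in both chambers, and its probe sets disagreed. The probe set 1368323_at had 8.87, 8.53 and 9.08 in atrial shunt pools, against 8.37, 8.23 and 8.23 in atrial sham pools, a difference of 0.55 ± 0.16 (adjusted p = 0.136). The same probe set had 7.98, 7.32 and 7.89 in ventricular shunt pools, against 7.18, 7.08 and 7.17 in ventricular sham pools, a difference of 0.59 ± 0.16 (adjusted p = 0.149). The groups did not overlap in either chamber. The second probe set, 1389780_at, had 7.89, 7.85 and 7.85 in atrial shunt pools, against 8.004, 7.96 and 7.95 in atrial sham pools, a difference of -0.11 ± 0.07 (adjusted p = 0.502), and -0.07 ± 0.07 in ventricle. The shunt difference of Tfpi therefore holds for 1 of its 2 probe sets, while both gave the same chamber difference.

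Eng had 9.24, 9.41 and 8.89 in atrial shunt pools, against 8.96, 8.70 and 8.81 in atrial sham pools, where the third shunt pool lay within the sham range. The difference was 0.36 ± 0.12 (adjusted p = 0.187), and without atrial shunt array 3 it was 0.50 (adjusted p = 0.0271). Ecscr had 7.37, 7.26 and 7.46 in atrial shunt pools, against 7.06, 7.01 and 7.13 in atrial sham pools, a difference of 0.30 ± 0.10 (adjusted p = 0.193). In ventricle Ecscr had 7.90, 7.55 and 7.71 in shunt pools, against 7.41, 7.19 and 7.52 in sham pools, a difference of 0.34 ± 0.10 (adjusted p = 0.177). Its arrays did not overlap in either chamber.

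Of the 8 members called higher in atrium in sham rats, 4 (Vcam1, Procr, Pdpn and Lyve1) had negative shunt differences in atrium and 4 (Tfpi, Vwf, Icam1 and Plvap) had positive ones. None of these passed, and both comparisons use the same atrial sham pools. Vcam1 had 7.12, 6.90 and 7.21 in atrial shunt pools, against 7.44, 7.45 and 7.49 in atrial sham pools, all lower, by -0.38 ± 0.13 (adjusted p = 0.172). Pdpn had 7.11, 7.26 and 6.82 in atrial shunt pools, against 7.47, 7.53 and 7.33 in atrial sham pools, a difference of -0.38 ± 0.11 (adjusted p = 0.121). Lyve1 differed by -0.36 ± 0.18 (adjusted p = 0.368), and its second probe set by -0.39 ± 0.11 (adjusted p = 0.106). Vwf differed by 0.23 ± 0.15, Icam1 by 0.10 ± 0.15 and Plvap by 0.01 ± 0.14. Procr had 7.30, 6.98 and 6.54 in atrial shunt pools, against 7.60, 7.18 and 7.28 in atrial sham pools, which overlap, and differed by -0.41 ± 0.18 (adjusted p = 0.311).

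Of 8 mesothelial markers tested in atrium, 1 was called, against 1.4% of all genes: Krt19, a keratin, fell by 0.63 (SE 0.13, adjusted p = 0.0442), a call that held in 1 of 12 fits without 1 array. The mean of the mesothelial list was 5.94, 5.96 and 5.48 in atrial shunt pools, against 5.90, 6.10 and 5.91 in atrial sham pools, so only array 3 lay outside the sham range. Msln, by contrast, had 8.08, 8.07 and 7.48 in atrial shunt pools, against 8.003, 8.23 and 7.73 in atrial sham pools, a difference of -0.11 ± 0.17. The part of mesothelial cells in the lower Vcam1, Pdpn and Procr values was not tested.

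**Figure D4:**
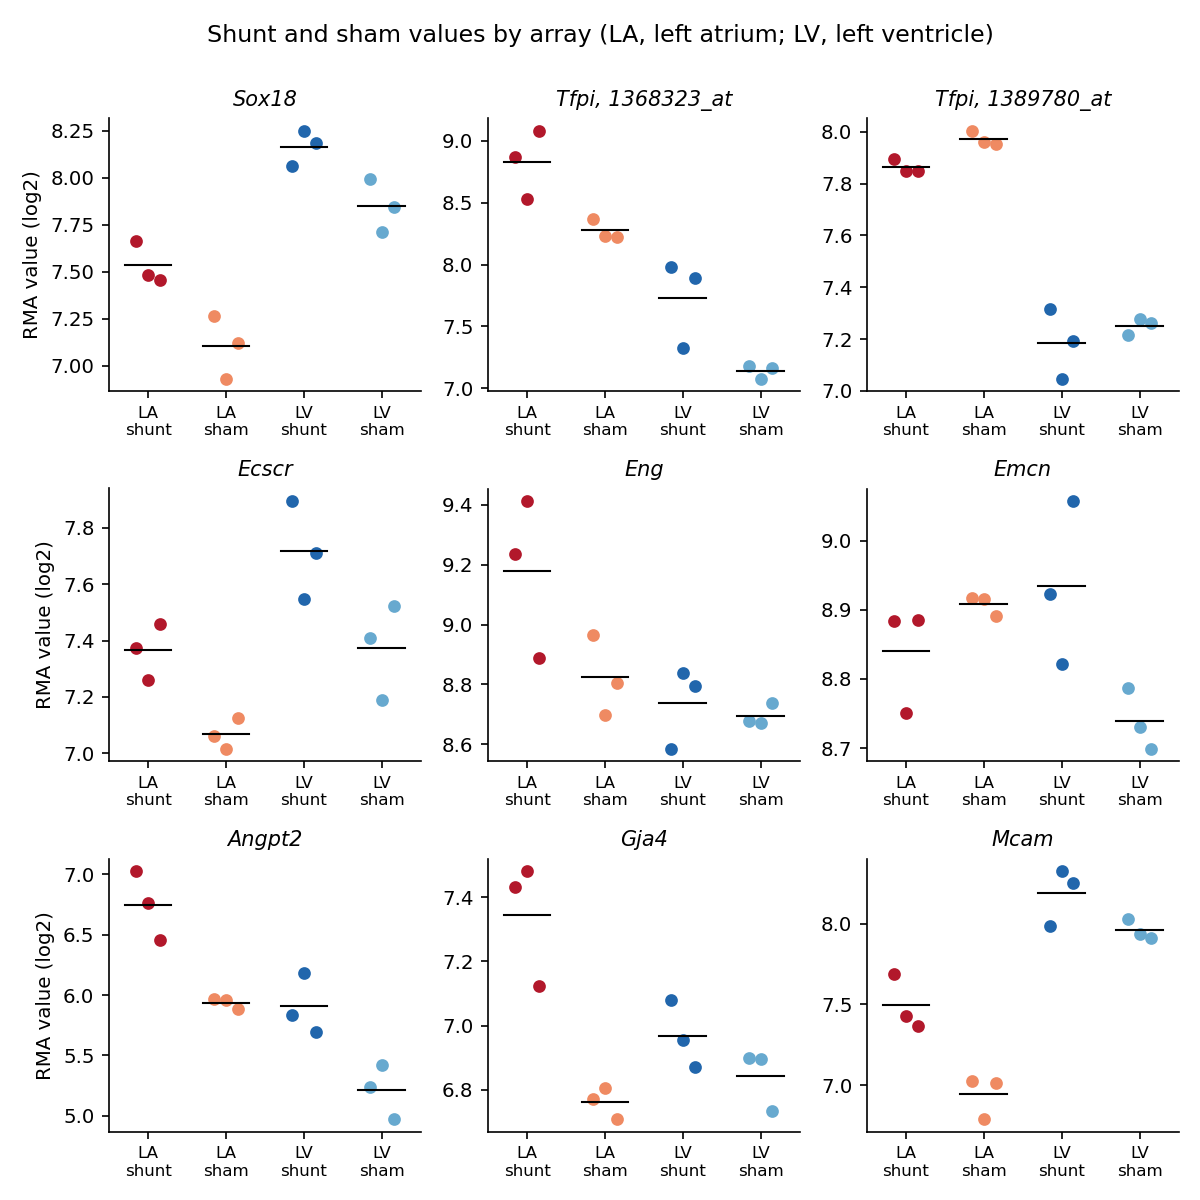
RMA values (log2) on each array for Sox18, both probe sets of Tfpi, Ecscr, Eng, Emcn, Angpt2, Gja4 and Mcam, with a line at each group mean and a separate vertical scale for each panel. Sox18, Ecscr and the first Tfpi probe set are higher in all shunt pools of a chamber than in its sham pools, and the second Tfpi probe set is not.

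By representing probe sets, 5 members (Ecscr, Sox17, Sox18, Aplnr and Tfpi) had all atrial shunt pools above all atrial sham pools, against 9.26% of all genes. The opposite held for 6 members (Tek, Emcn, Mmrn2, Lyve1, Pdpn and Vcam1), against 12.5% of all genes. In ventricle 8 members (Pecam1, Emcn, Icam2, Ecscr, Nos3, Sox18, Cav1 and Tfpi) had all shunt pools higher, against 11.0% of all genes. By these probe sets no member had all shunt pools lower, against 10.5%. A further tested Sox17 probe set, 1390041_at, did, with 4.45, 4.51 and 4.17 in ventricular shunt pools, against 4.78, 4.75 and 4.61 in sham pools. It differed by -0.14 ± 0.12 in atrium, where the second Tfpi probe set also had a negative difference. Nos3 had 7.00, 6.95 and 6.97 in ventricular shunt pools, against 6.62, 6.77 and 6.66 in ventricular sham pools, a difference of 0.29 ± 0.10 (adjusted p = 0.237). Emcn, the sialomucin endomucin of veins and capillaries, was the only member whose arrays separated in both chambers in opposite directions, which 0.594% of all genes did. Its difference was -0.07 ± 0.07 in atrium (adjusted p = 0.71) and 0.20 ± 0.07 in ventricle (adjusted p = 0.242).

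A mean of the 2 shunt effects was added after seeing the data, so that each estimate draws on all 12 arrays. Over both chambers 3 members rose, against 5.06% of all genes called. Sox18 rose by 0.37 ± 0.07 (limma adjusted p = 0.0184), and was called in all 12 fits without 1 array. Tfpi rose by 0.57 ± 0.12 (adjusted p = 0.0219, called in 8 of 12 such fits), on the probe set that its second probe set does not follow. Ecscr rose by 0.32 ± 0.07 (adjusted p = 0.0324, called in 4 of 12 such fits). Without atrial shunt array 3, Eng at 0.27 ± 0.07 (adjusted p = 0.0378) and Vwf at 0.28 ± 0.07 (adjusted p = 0.044) were called as well. With all arrays Eng was at 0.20 ± 0.09 (adjusted p = 0.201) and Vwf at 0.18 ± 0.11 (adjusted p = 0.328). The further probe sets had the sign of the representing one in 4 of 13 cases. A share of 3 in 32 members stands beside the background of 5.06%, and the values of the 3 genes had already been seen when this contrast was chosen.

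Of 17 angiogenic ligands tested, 1 was called in atrium, against 1.4% of all genes. Angpt2, the angiopoietin that endothelial cells release when vessels remodel, had 7.03, 6.76 and 6.45 in atrial shunt pools, against 5.96, 5.95 and 5.89 in atrial sham pools, without overlap. It rose by 0.81 ± 0.16 (adjusted p = 0.0328, called in 6 of 12 fits without 1 array). In ventricle Angpt2 had 5.84, 6.18 and 5.69 in shunt pools, against 5.24, 5.42 and 4.97 in sham pools, a difference of 0.70 ± 0.16 (adjusted p = 0.0949). The receptor Tek had 8.37, 8.46 and 8.34 in atrial shunt pools, against 8.49, 8.64 and 8.49 in atrial sham pools, a difference of -0.15 ± 0.08 (adjusted p = 0.394).

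Of 40 other endothelial genes, 2 rose and 1 fell in atrium, against 1.4% of all genes called in either direction. None passed the limma test in ventricle, against 0.113% of all genes. There 18 of the 40 had an unadjusted p under 0.05, as did 1553 of 10606 genes. Gja4, a connexin of gap junctions in arterial endothelium, had 7.43, 7.48 and 7.12 in atrial shunt pools, against 6.77, 6.81 and 6.71 in atrial sham pools, and rose by 0.58 ± 0.10 (adjusted p = 0.0158). Mcam, CD146, an adhesion molecule that smooth muscle cells also carry, had 7.69, 7.43 and 7.36 in atrial shunt pools, against 7.03, 6.79 and 7.01 in atrial sham pools, and rose by 0.55 ± 0.11 (adjusted p = 0.0378, called in 3 of 12 fits without 1 array). Tspan7, a tetraspanin, fell by 0.34 (SE 0.07, adjusted p = 0.0306). Of the 7 capillary metabolism genes, 1 fell in atrium, Fabp5, by 0.40 (SE 0.07, adjusted p = 0.021), with 9.59, 9.62 and 9.51 in atrial shunt pools, against 9.89, 10.09 and 9.96 in atrial sham pools. These 5 atrial calls were all lost when only the atrial arrays were fitted, with adjusted p of 0.0912 for Angpt2, 0.104 for Gja4, 0.13 for Mcam, 0.129 for Tspan7 and 0.117 for Fabp5. Lists of other cell types also held calls in atrium. Of 5 ventricular muscle markers 2 rose (Myh7 and Myl3), with list means of 6.10 to 6.48 in atrial shunt pools, against 5.37 to 5.84 in atrial sham pools. Of 4 nerve markers 2 rose (Prph and Cnp), with list means of 6.18 to 6.42 in atrial shunt pools, against 5.89 to 5.99 in atrial sham pools, and of 8 fibroblast markers 1 rose (Thy1). Of 9 mural markers none passed and 8 were above 0, with list means of 7.47, 7.49 and 7.17 in atrial shunt pools, against 7.20 to 7.30 in atrial sham pools. The part of these cells in the atrial values was not tested.

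**Figure D5:**
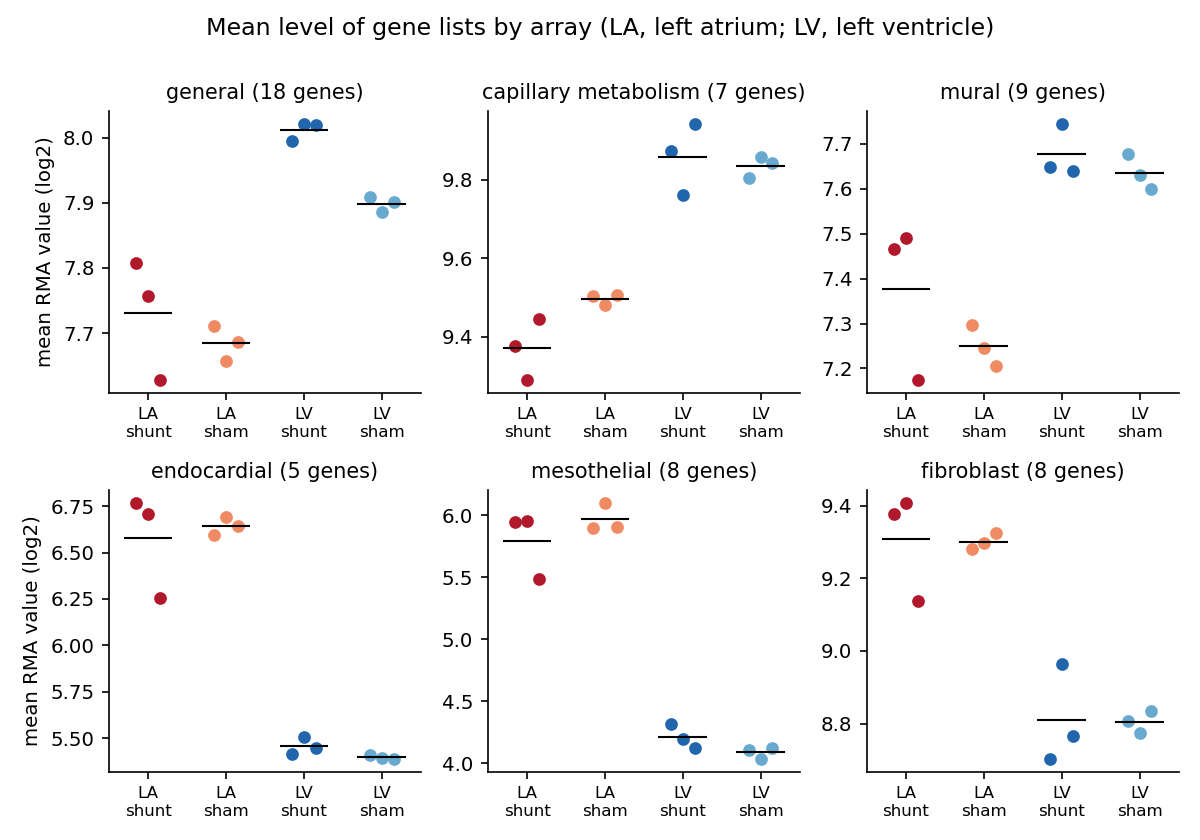
Mean RMA value (log2) over the tested genes of the general class and of 5 other lists (capillary metabolism, mural, endocardial, mesothelial and fibroblast), on each of the 12 arrays. The general class lies at 7.995 to 8.02 in ventricular shunt pools and 7.89 to 7.91 in ventricular sham pools. Atrial shunt array 3 is the lowest atrial array for every list shown except capillary metabolism.

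Averaged over the class, the 18 general members lay at 7.81, 7.76 and 7.63 in atrial shunt pools, against 7.66 to 7.71 in atrial sham pools. Shunt arrays 1 and 2 lay above every sham pool and array 3 below every sham pool. In ventricle the class lay at 7.995 to 8.02 in shunt pools, against 7.89 to 7.91 in sham pools, with 15 of 18 members above 0 and a median of 0.09. The macrophage list also lay higher in ventricle, at 6.45 to 6.70 in shunt pools, against 6.26 to 6.35 in sham pools, with 10 of 11 genes above 0 and none called. The mural list lay at 7.64 to 7.74 in ventricular shunt pools, against 7.60 to 7.68 in ventricular sham pools, and the heart muscle list at 12.93 to 12.97, against 12.94 to 12.97. The part of these cells in the ventricular shift was not tested.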

How the data were processed

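RNA of 12 pools was measured on one-colour Affymetrix rat arrays, with 3 arrays in each of 4 groups. The authors deposited log2 values that they had made with RMA, per the submitters' processing notes, and its version is not given in the sources. Of 31099 probe sets, 57 controls were left out, and 18625 with a mean at or above the 40th percentile (log2 4.01) were tested with limma 3.58.1 in R 4.3.3, with 1 mean per group, no block and two-sided p-values adjusted over all of them. The residual degrees of freedom were 8 and the prior ones 3.68. The number of arrays limits the precision. Symbols came from the platform annotation, updated by Entrez identifier: 20826 probe sets had 1 symbol, 436 several and 9780 none.

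All 35 members may be named, and of each companion list and contrast up to 4 genes past the threshold by largest difference, or up to 2 by smallest p where none passed. The members, lists and tests were chosen with earlier results of these data known. Alternatives changed the filter, normalization, array weights, prior, groups fitted, replicate block and probe set rule, added the hexokinase difference as a covariate, and left out each array. A fit without the 3 arrays of highest hexokinase difference and the mean shunt effect were chosen after seeing the data. Same-numbered atrial and ventricular shunt pools had deviations that correlated at -0.24, 0.44 and 0.44, and sham pools at 0.23, 0.26 and 0.07. Since not every pair was above 0.1 and the labels do not say that numbers mark shared rats, the numbers were not taken to pair samples. The fit was tested on simulated data.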

Additional observations from a re-analysis of the deposited data

Results flagged for a closer look

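For Emcn, the endothelial sialomucin endomucin, every atrial shunt pool lay below every atrial sham pool, and every ventricular shunt pool lay above every ventricular sham pool. It had 8.88, 8.75 and 8.88 in atrial shunt pools, against 8.92, 8.92 and 8.89 in atrial sham pools, and 8.92, 8.82 and 9.06 in ventricular shunt pools, against 8.79, 8.73 and 8.70 in ventricular sham pools. In atrium the highest shunt pool, at 8.885, lay just under the lowest sham pool, at 8.891. The shunt difference was -0.07 ± 0.07 in atrium (limma adjusted p = 0.71) and 0.20 ± 0.07 in ventricle (adjusted p = 0.242), and neither passed. The atrial minus the ventricular shunt effect was -0.263 ± 0.10 (SE, n = 3 per group), and the limma test of that difference did not pass (adjusted p = 0.665).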

How the results depend on the processing

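With 3 arrays per group, atrial shunt differences of 0.43 ± 0.10 (Sox18) and -0.38 ± 0.11 (Pdpn) did not pass. Passing depended on the SE of each gene as well as on size, since the smaller atrial fall of Tspan7 passed. Members near the filter, such as Flt4, lie close to the array background. Between the chambers in sham rats, 18 to 23 members were called without 1 array and 21 to 26 in the other alternatives, against 22. After the shunt it was 19 to 23 and 20 to 23, against 23. The fit without the 3 arrays of highest hexokinase difference leaves 2 atrial and 1 ventricular shunt array, and the lone array is assumed to vary like the other groups. Under the shunt in atrium no member was called with all arrays, 0 to 1 without 1 array (Eng without atrial shunt array 3), 1 with a filter at the 60th percentile, 1 with a trended and robust prior and 1 with a gene's probe sets averaged, which was Sox18 each time. Array weights called 3 members (Eng and Sox18 higher, Vcam1 lower), the hexokinase covariate 3 (Eng, Sox18 and Tfpi) and the fit without the 3 arrays 3 (Eng and Vwf higher, Vcam1 lower). In ventricle 0 to 1 member was called without 1 array and 1 with array weights, Tfpi in both cases. The mean shunt effect called 1 to 5 members without 1 array, 5 with the hexokinase covariate (Eng higher and Vcam1 lower beside the 3) and 5 without the 3 arrays, against 3. Without the 3 arrays Sox18 remained, Ecscr and Tfpi were lost, and Eng, Pecam1 and Vwf higher and Vcam1 lower were gained. No member was called for the difference of effects in any of these fits.

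Over all probe sets, the atrial shunt count of 243 was 66 to 469 without 1 array, 910 with array weights, 426 with a trended and robust prior, 43 with only the atrial groups, 758 with the hexokinase covariate and 642 without the 3 arrays. The ventricular count of 20 was 0 to 118 without 1 array, 82 with the 60th percentile filter, 38 after quantile normalization, 160 with array weights, 96 with the other prior, 10 with only the ventricular groups, 215 with the covariate and 45 without the 3 arrays. For the difference of effects the count of 0 was 0 to 19 without 1 array, 11 with array weights, 1 with the other prior, 1 with the covariate, 15 without the 3 arrays and 2 with the mean of probe sets. The chamber counts of 8782 in sham and 7801 after shunt were 7340 to 9346 and 6666 to 7957 without 1 array, and 5277 and 4826 with the mean of probe sets, where each gene is 1 row.

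The replicate block left 0, 0 and 0 members for the 2 shunt comparisons and their difference, 21 for the chambers in sham and 22 after shunt, with 208, 15, 0, 8818 and 7825 probe sets in all. The numbers were not taken to pair the samples, and Gpihbp1 was the member no longer called under the block.

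Some differences that passed no test changed sign. With a gene's probe sets averaged, the shunt difference was 0.0675 for Egfl7, 0.0940 for Icam2, -0.0300 for Sox17 and -0.00969 for Cav1 in atrium, and 0.176 for Egfl7, -0.171 for Sox17 and -0.0601 for Prox1 in ventricle, and the chamber difference of Cav1 after shunt was -0.0315. Without the 3 arrays it was 0.0759 for Icam2 in atrium, and -0.0713 for Tek, 0.280 for Erg and 0.411 for Lyve1 in ventricle, with 0.0131 for the chamber difference of Tek after shunt, and -0.217 for Erg and 0.242 for Tfpi in the difference of effects. Array weights gave 0.0695 for Icam2 in atrium. Without 1 array, the atrial shunt difference ran from -0.0448 to 0.152 for Cldn5, -0.143 to 0.0583 for Egfl7, -0.117 to 0.0759 for Icam2 and -0.00863 to 0.191 for Thbd, that of Vcam1 in ventricle from -0.163 to 0.0805, and the chamber difference of Erg after shunt from -0.236 to 0.113. For the alternatives where no sample is left out, the cause was not tested.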

Other observations

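Outside the 35 members, the mean of the atrial and ventricular shunt effects, a contrast chosen after seeing the data, called 8 of 40 other endothelial genes as higher and 1 as lower, against 5.06% of all genes called. Sox7, the third SOXF transcription factor beside Sox17 and Sox18, had 8.07, 7.91 and 7.88 in atrial shunt pools, against 7.65, 7.57 and 7.65 in atrial sham pools. In ventricle Sox7 had 8.48, 8.68 and 8.48 in shunt pools, against 8.31, 8.002 and 8.22 in sham pools. The shunt pools were higher in both chambers without overlap, and Sox7 rose by 0.35 ± 0.06 (SE, limma adjusted p = 0.0153). Klf2, a transcription factor that laminar shear stress induces in endothelium, was the 1 lower gene. It had 9.12, 9.12 and 8.51 in atrial shunt pools, against 9.46, 9.33 and 9.43 in atrial sham pools, and 9.17, 9.13 and 9.04 in ventricular shunt pools, against 9.48, 9.57 and 9.57 in ventricular sham pools. Klf2 fell by 0.46 (SE 0.09, adjusted p = 0.0229), with every shunt pool below every sham pool of its chamber.

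Of 17 angiogenic ligands, 3 rose in the same contrast, against 5.06% of all genes called in either direction. Outside the members, fits without 1 array are not given for this contrast. Angpt2 rose by 0.75 ± 0.11 (adjusted p = 0.00614), Bmp4 by 0.55 ± 0.12 (adjusted p = 0.0263) and Bmp6 by 0.34 ± 0.09 (adjusted p = 0.0492). The leukocyte attractant Ccl2 was the 1 leukocyte adhesion gene of 10 to pass, beside the same 5.06%, at 0.51 ± 0.10 (adjusted p = 0.0193). Its values were 6.65, 6.15 and 6.19 in atrial shunt pools, against 5.98, 5.71 and 5.89 in atrial sham pools. Of 11 macrophage markers, Lyz2, lysozyme, was the 1 to pass, again beside 5.06% of all genes, at 0.49 ± 0.10 (adjusted p = 0.0236). The part of macrophages in these values was not tested.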
